A study of Mus musculus with 24 samples.

Results

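This account concerns the 6 T-PNU tumors among the 24 of the series and compares the 4 that the study called high-responding with the 2 that it marked as low-responding. T-PNU is trastuzumab, an antibody against human HER2, that carries an anthracycline payload called PNU. The high-responding samples have the well codes H1, B2, C2 and D2, and the low-responding samples are G1 and A2. The sample labels give the treatment but not the response, and the study does not say how response was defined. Expression may have been used to define it, so the comparison is descriptive and no p-value is given for it. With 4 samples against 2 there are only 15 ways to divide them, and an exact permutation test could not go below p = 0.0667.

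Each sample is 1 female Balb/c mouse of wild-type genotype, aged 10 to 12 weeks, that carried a tumor of EMT6-hHER2 cells in the mammary fat pad. These cells are a single clone of the murine breast cancer line EMT6 made to express human HER2, so all tumors share 1 origin, and the mice have a working immune system. Tumors of 80 mm3 received 1 intravenous dose and were taken 10 days later, and CD45+ cells, which are leukocytes, were enriched with magnetic beads before RNA-seq. The 6 T-PNU mice received 1 mg/kg. The other cohorts, used here only to place the T-PNU samples, were 6 untreated mice, 6 given trastuzumab alone (20 mg/kg) and 6 given T-DM1 (15 mg/kg), which is trastuzumab with a maytansine payload. The labels name no batch and pool no animals. Values are normalized expression on a log2 scale for 16996 genes, as the authors made them, and a difference of 1 is a 2-fold difference. The table used here holds no counts, and sequencing depth is therefore unknown.

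Tumors hold T cells, which recognise antigen through the T cell receptor, B cells, which carry surface immunoglobulin, and myeloid cells such as macrophages and neutrophils. Naive T and B cells move between blood and lymphoid tissue under receptors such as Ccr7, whereas cytotoxic T cells and natural killer cells kill with granzymes and perforin. Enrichment on CD45 can leave some tumor and stromal cells behind. In bulk RNA from such a preparation, fewer cells of a type and less RNA per cell cannot be told apart.

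The labelled cell type was checked first. Ptprc, which encodes CD45, was 15.37 in H1, 15.14 in B2, 15.52 in C2 and 14.96 in D2, against 14.75 in G1 and 14.82 in A2. It was high in all 6 samples, and the 4 lay above the 2 by 0.46. Transcripts of non-leukocytes were present too. Krt8, a keratin of epithelial and tumor cells, was 11.90 in H1, 12.76 in B2, 11.69 in C2 and 12.70 in D2, against 13.11 in G1 and 12.93 in A2, and Col1a1, the main fibrillar collagen of fibroblasts, was 11.67 in H1, 12.68 in B2, 11.49 in C2 and 12.69 in D2, against 12.93 in G1 and 12.93 in A2. Both were lowest in C2 and next lowest in H1. One sample, C2, also stood farthest from the centre of the T-PNU cohort over all genes, at a root mean square deviation of 0.438, against 0.145 to 0.362 in the other 5. The total counts and the counts of the main lists are therefore given with and without it.

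A gene is called separated here when all 4 high-responding values lay on one side of both low-responding values and the means differed by at least 1. By this definition 538 of 16996 genes (3.17%) were higher in the 4 and 51 (0.3%) were lower. Without C2 the numbers were 385 and 1. The lower count also turned on other samples, being 31 without H1, 216 without B2, 223 without D2 and 174 without A2. Without any limit on size, all 4 values lay above both for 3520 genes (20.7%) and below both for 3888 genes (22.9%). The median difference over all genes was -0.01, with quartiles of -0.2 and 0.21, so that both directions were about balanced among small differences and unequal among large ones. Differences of at least 2, that is 4-fold, were seen for 81 separated genes, all of them higher in the 4.

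**Figure D1:**
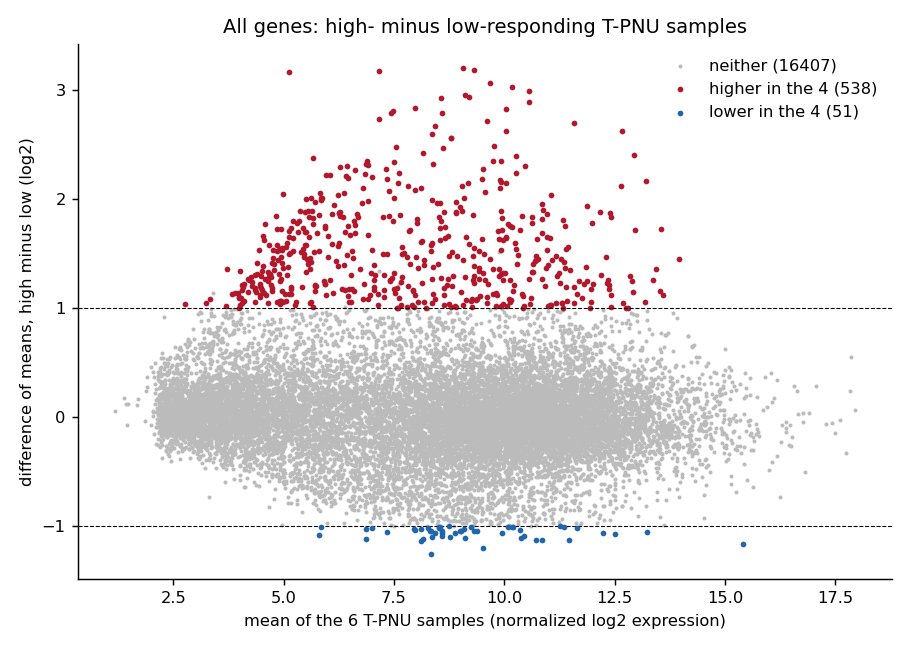
Difference of means, high- minus low-responding T-PNU samples (log2), against the mean of the 6 samples (normalized log2 expression) for 16996 genes, 1 point per gene. Red points are the 538 genes separated and higher in the 4, blue points the 51 separated and lower, and dashed lines mark differences of 1 and -1. The red points reach 3.2 and the blue points -1.26.

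Among genes with a symbol of their own, antigen receptor segments and predicted genes aside, and a mean over the 24 samples above that of the median gene, B cell genes ranked first by difference. Ms4a1, which encodes the B cell surface protein CD20, was 11.49 in H1, 9.92 in B2, 11.03 in C2 and 10.36 in D2, against 6.61 in G1 and 8.67 in A2. Every high-responding value exceeded both low-responding values, and the mean difference of 3.06 corresponds to 8.34-fold. The gene lies on chromosome 19 from 11249675 to 11266241 on the minus strand (GRCm38). Cd79a, a signalling chain of the B cell receptor, was 11.81 in H1, 11.01 in B2, 12.01 in C2 and 11.29 in D2, against 7.64 in G1 and 9.64 in A2. In both genes G1 was the lowest sample and A2 lay between G1 and the 4. Pax5, the transcription factor that maintains B cell identity, differed by 2.48, Pou2af1, a B cell coactivator, by 2.71, and Cxcr5, the receptor that guides B cells into follicles, by 2.63. Bank1, a B cell scaffold protein, differed by 2.35.

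All 16 genes of the B cell list were separated and higher in the 4, with a median difference of 2.59, where 3.17% of all genes were. The smallest difference of the list was 1.65 for Cd22, an inhibitory coreceptor. Fcer2a and Cr2, the low-affinity IgE receptor and a complement receptor, mark mature follicular B cells. They differed by 2.93 and 2.67. The level of a list in a sample was taken as the average, over its genes, of the sample's value minus the mean of all 24 samples. For the B cell list it was 2.03 in H1, 0.95 in B2, 1.87 in C2 and 1.24 in D2, against -1.77 in G1 and -0.13 in A2. The low-responding samples therefore differed from each other by more than the gap between A2 and the nearest of the 4. Without C2 all 16 remained separated. Without G1 the median difference of the list was 1.68, and without A2 it was 3.46.

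**Figure D2:**
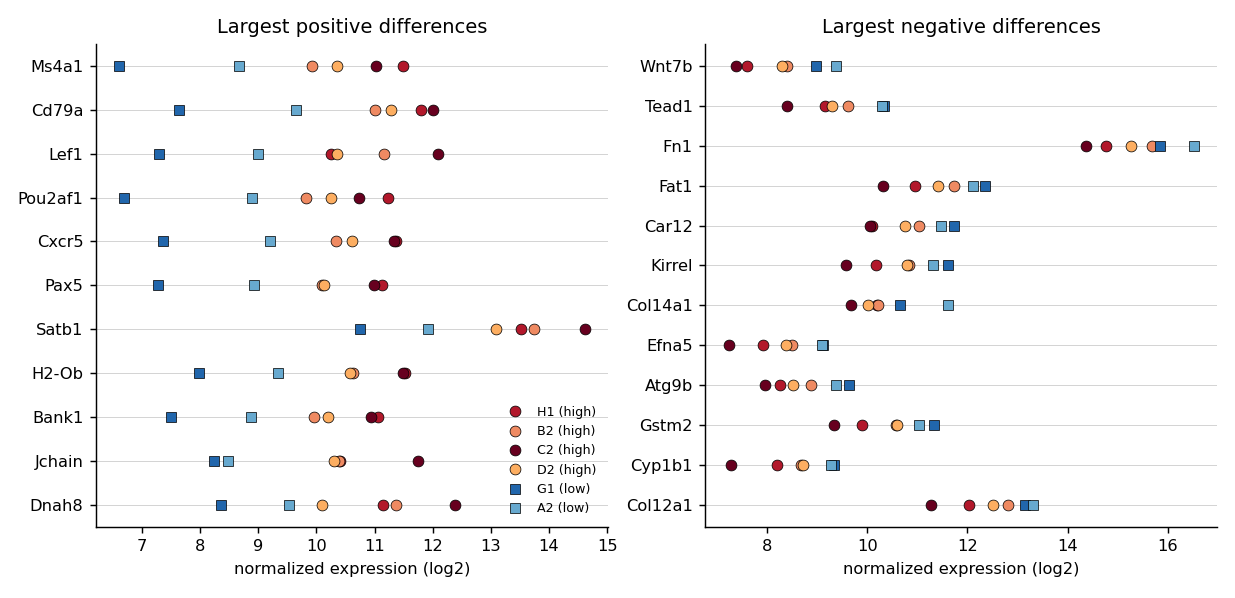
Normalized expression (log2) in the 6 T-PNU samples for the genes shown of the 12 with the largest positive and the 12 with the largest negative difference under the naming rule. Circles are high-responding and squares low-responding samples. On the left G1 lies lowest for every gene shown, and on the right C2 does.

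Immunoglobulin genes followed the B cell genes. Of 12 constant region genes with values, 11 were separated and higher in the 4, with a median difference of 2.19 over the 12. Ighd, the constant region of IgD on naive B cells, was 12.03 in H1, 10.93 in B2, 12.10 in C2 and 11.16 in D2, against 7.46 in G1 and 9.67 in A2. Igkc, the kappa light chain, differed by 2.62, and Ighg1, the constant region of IgG1 made by class-switched cells, by 2.69. Ighm, the constant region of IgM, differed less, by 1.29. Igha, of mucosal IgA, was the exception, at 7.93 in H1, 7.85 in B2, 8.33 in C2 and 7.47 in D2, against 8.65 in G1 and 7.23 in A2, with overlapping values. Among variable, diversity and joining segments 105 of 178 (59%) were separated and higher, and none was lower. Without C2 these counts were 11 of 12 and 87 of 178 (48.9%). These segments are close relatives of each other, and reads that could be assigned to several of them make single segments uncertain.

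Genes of antibody-secreting plasma cells were partly separated. Of 8 with values 4 were higher in the 4, and 4 without C2, with a median difference of 0.89. Jchain, which joins IgM or IgA units, was 10.40 in H1, 10.39 in B2, 11.74 in C2 and 10.29 in D2, against 8.24 in G1 and 8.48 in A2, and Mzb1, an endoplasmic reticulum helper of antibody assembly, was 8.80 in H1, 8.40 in B2, 9.41 in C2 and 8.66 in D2, against 6.43 in G1 and 6.99 in A2. C2 was highest for both. By contrast Prdm1, the transcription factor of plasma cell differentiation that T cells and macrophages also use, was 10.06 in H1, 9.87 in B2, 9.74 in C2 and 9.86 in D2, against 10.06 in G1 and 9.96 in A2, and Sdc1, a surface proteoglycan of plasma cells and epithelial cells, differed by -0.49 with overlapping values.

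Genes of the T cell receptor complex and its signalling were the second group. Cd3e, an invariant chain of the receptor complex, was 9.66 in H1, 9.88 in B2, 10.73 in C2 and 9.83 in D2, against 8.47 in G1 and 8.59 in A2. The values of the 4 did not overlap those of the 2, and the difference of 1.5 corresponds to 2.82-fold. Cd3d and Cd3g, further chains of the complex, differed by 1.74 and 1.43. Lck, the kinase that starts receptor signalling, was 11.40 in H1, 11.65 in B2, 12.51 in C2 and 11.49 in D2, against 10.28 in G1 and 10.34 in A2. For Lck G1 and A2 lay close together, and C2 stood above the other 3 of the 4. Zap70, a kinase downstream of Lck, differed by 1.48, and Ubash3a, a regulator of receptor signalling, by 2.19, the largest of the list.

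In all, 17 of 19 genes of this list were separated and higher in the 4, all 19 had values of the 4 above both, as 20.7% of all genes did, and the median difference was 1.53. The list level was 0.82 in H1, 1.13 in B2, 1.98 in C2 and 0.91 in D2, against -0.54 in G1 and -0.27 in A2. C2 stood well above the other 3. The coreceptors differed in size. Cd4, of helper T cells, was 11.06 in H1, 11.59 in B2, 12.48 in C2 and 10.95 in D2, against 9.26 in G1 and 9.97 in A2, whereas Cd8a, of cytotoxic T cells, was 10.37 in H1, 10.09 in B2, 10.76 in C2 and 10.56 in D2, against 9.89 in G1 and 9.43 in A2. The difference was 1.90 for Cd4 and 0.78 for Cd8a, which was one of the genes of the list that stayed under 2-fold. Cd8b1, the partner of Cd8a, differed by 1.10. Of 82 T cell receptor segments 16 (19.5%) were separated and higher, and none was lower. Without C2 the counts were 16 of 19 and 13 of 82 (15.9%).

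Cd3d, Cd3e and Lck are printed here with the 250 bases before their start sites (RefSeq, build GRCm38.p6) because they belong to the T cell receptor genes that moved together and contain the letters AGGAAGTG, a match to the motif of Ets transcription factors, on either strand. The match is in capitals, and CACTTCCT is its reverse complement.
Cd3d, chr9:44981536-44981785, plus strand: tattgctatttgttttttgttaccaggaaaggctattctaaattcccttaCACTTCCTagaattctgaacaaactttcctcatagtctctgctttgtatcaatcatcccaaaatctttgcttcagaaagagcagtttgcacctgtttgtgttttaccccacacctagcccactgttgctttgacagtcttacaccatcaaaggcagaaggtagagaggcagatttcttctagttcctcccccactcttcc
Cd3e, chr9:45009612-45009861, minus strand: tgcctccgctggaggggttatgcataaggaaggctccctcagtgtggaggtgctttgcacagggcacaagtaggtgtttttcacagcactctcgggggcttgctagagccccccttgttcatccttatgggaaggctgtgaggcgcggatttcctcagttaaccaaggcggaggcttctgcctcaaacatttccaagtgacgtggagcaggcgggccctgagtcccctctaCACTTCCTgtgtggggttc
Lck, chr4:129558373-129558622, minus strand: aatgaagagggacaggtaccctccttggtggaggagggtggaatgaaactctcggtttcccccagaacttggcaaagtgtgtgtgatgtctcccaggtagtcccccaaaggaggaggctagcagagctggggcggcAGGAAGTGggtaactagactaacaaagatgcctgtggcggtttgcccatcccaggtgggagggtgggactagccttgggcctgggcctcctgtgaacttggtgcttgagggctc
The match begins 200 bases before the start of Cd3d, 19 before that of Cd3e and 114 before that of Lck. The letters were found before 3 of the 11 genes of the T cell receptor list with a promoter in the table, 1 of 11 of the B cell list (Cd79a), 2 of 12 of the naive lymphocyte list (Satb1 and Ms4a6b) and 3.62% of all 27025 genes. The octamer ATGCAAAT, known from immunoglobulin promoters, was searched in the same way and was found before no gene of these 3 lists and before 1.81% of all genes. The motifs were chosen after the expression values had been seen, and a match is a description of these letters only.

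Genes of naive lymphocytes and of homing to lymph nodes formed the third group, with 10 of 15 separated and higher in the 4, or 8 without C2, and a median difference of 1.82. Lef1, a transcription factor of naive T cells, was 10.26 in H1, 11.16 in B2, 12.10 in C2 and 10.36 in D2, against 7.30 in G1 and 8.99 in A2, and Tcf7, its relative that encodes TCF1, differed by 1.86. Ccr7, the chemokine receptor for entry into lymph nodes, was 13.68 in H1, 13.80 in B2, 14.77 in C2 and 13.46 in D2, against 11.27 in G1 and 12.25 in A2. For each of these genes C2 was highest and G1 lowest. S1pr1, the receptor for exit from lymphoid tissue, differed by 1.93, Satb1, a chromatin organiser of T cells, by 2.4, and Bach2, which holds lymphocytes in a resting state, by 1.83. Igfbp4, an insulin-like growth factor binding protein, went against the list at -0.40, with overlapping values.

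**Figure D3:**
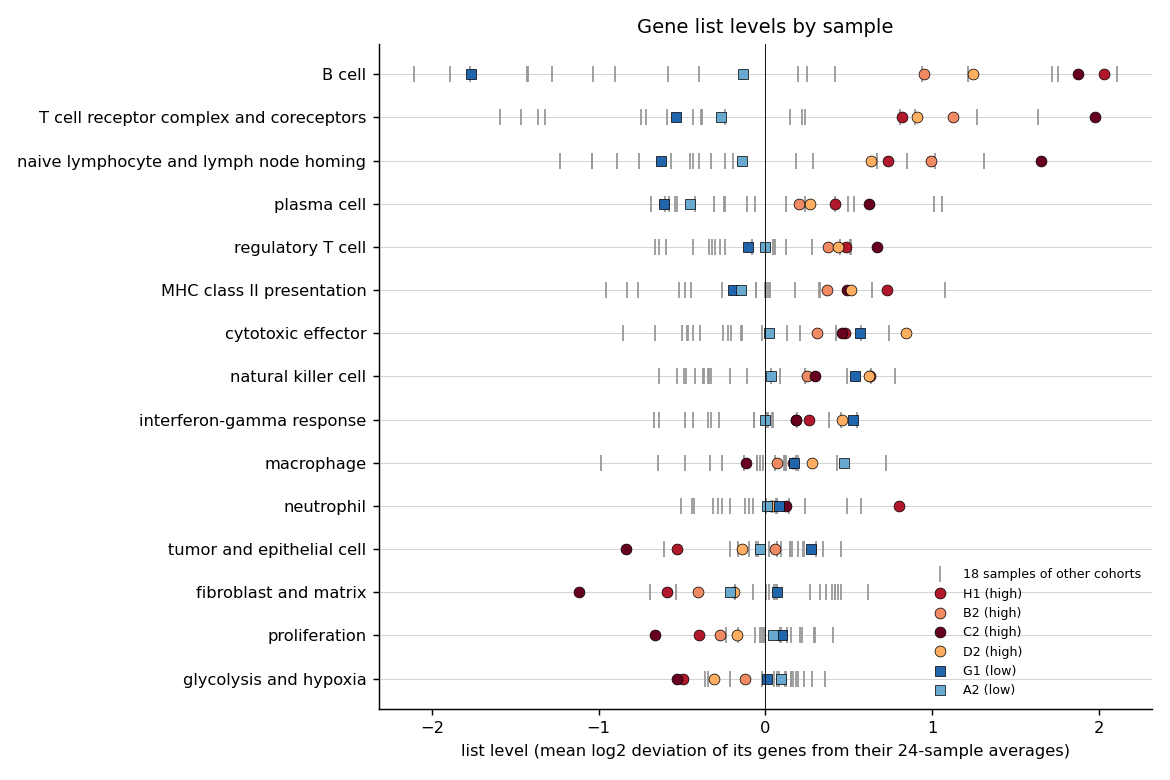
Level of 15 gene lists (average over genes of the sample's log2 value minus the mean of all 24 samples) in each T-PNU sample and, as grey ticks, in the 18 samples of the other cohorts. Circles are high-responding and squares low-responding samples. The 4 circles lie above both squares from the B cell list down to MHC class II presentation and below both for proliferation and for glycolysis and hypoxia, and they overlap the squares in the other lists shown.

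No cytotoxic gene was separated, which for a list of 16 is near the share of all genes (3.17% higher and 0.3% lower). Of 16 cytotoxic effector genes, 12 had a positive difference and 5 (31.2%) had all 4 values above both, as 20.7% of all genes did, and the median difference was 0.35. None had all 4 values below both, against 22.9% of all genes. The median turned on the low-responding sample used, being 0.627 without G1 and 0.087 without A2. Gzmb, which encodes granzyme B, was 11.57 in H1, 11.43 in B2, 11.57 in C2 and 12.27 in D2, against 11.69 in G1 and 11.02 in A2. D2 was highest and A2 lowest, and G1 lay among the high-responding samples. Prf1, the pore-forming perforin, was 9.11 in H1, 9.19 in B2, 9.43 in C2 and 9.82 in D2, against 9.30 in G1 and 8.75 in A2, with the same order at the ends. Nkg7, a protein of cytotoxic granules, differed by 0.48 with overlapping values. The largest difference of the list was that of Gzmk, 0.86, with all 4 above both, and Gzmf went the other way at -0.55.

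The level of the cytotoxic list was 0.48 in H1, 0.31 in B2, 0.46 in C2 and 0.84 in D2, against 0.57 in G1 and 0.02 in A2, so G1 ranked second of the 6 while it ranked last for T cell receptor genes. The cytotoxic level minus the T cell receptor level, a quantity chosen after the values had been seen, was -0.34 in H1, -0.81 in B2, -1.52 in C2 and -0.07 in D2, against 1.11 in G1 and 0.29 in A2. It was positive in both low-responding samples and negative in all 4 high-responding samples, and the T cell receptor level within it already lay higher in the 4. Both signs occurred in the other cohorts too. The range was -1.84 to 0.74 in untreated, -0.70 to 0.86 in trastuzumab and -1.12 to 1.00 in T-DM1 samples. Natural killer cell genes had 0 of 13 separated, again near the share of all genes, and a median difference of 0.18. All 4 values lay above both for 2 of the 13 (15.4%) and below both for 1 (7.69%). Ncr1, an activating receptor of these cells, was 7.37 in H1, 7.11 in B2, 7.07 in C2 and 7.53 in D2, against 7.85 in G1 and 7.03 in A2, highest in G1.

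**Figure D4:**
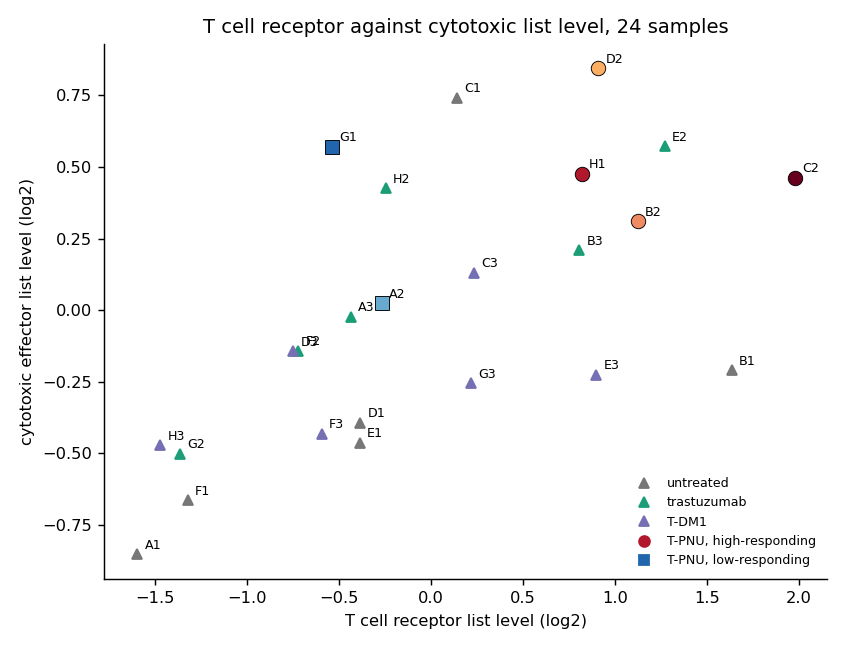
Level of the T cell receptor list (x axis, log2) against that of the cytotoxic effector list (y axis, log2) in the 24 samples, labelled with their well codes. The high-responding T-PNU samples span 0.82 to 1.98 on the x axis and 0.31 to 0.84 on the y axis, and G1 lies at -0.54 and 0.57.

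Regulatory and inhibitory genes were separated in part. Of 12 regulatory T cell genes 4 (33.3%) were separated and higher in the 4, against 3.17% of all genes, with a median difference of 0.68. All 4 values lay above both for 9 of the 12 (75%), against 20.7% of all genes, and below both for 1 (8.33%). Without C2 none was separated, but 9 still lay above both, against 21.7% of all genes, and the median was 0.61. Ctla4, an inhibitory receptor that regulatory T cells carry, was 10.86 in H1, 10.54 in B2, 11.21 in C2 and 10.54 in D2, against 9.54 in G1 and 9.78 in A2, and Icos, a costimulatory receptor, differed by 1.13. Foxp3, the lineage factor of regulatory T cells, was 9.04 in H1, 8.93 in B2, 9.46 in C2 and 8.96 in D2, against 7.99 in G1 and 8.27 in A2, not overlapping but just under 2-fold. Of 10 inhibitory receptor genes 4 were separated, or 3 without C2. Btla, a receptor shared by B and T cells, differed by 1.38 and Tox, a nuclear factor of exhausted and developing T cells, by 1.51. Pdcd1, which encodes PD-1, was 10.33 in H1, 10.00 in B2, 10.33 in C2 and 10.62 in D2, against 9.93 in G1 and 9.56 in A2, and its difference was 0.57. Havcr2, which encodes TIM-3 and is also found on myeloid cells, was lower in all 4, with a difference of -0.32.

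The study names 9 genes for a Th1-driven response of T-PNU samples relative to the other cohorts, a different comparison from that made here. Among them it gives Il6 and Il10 as Th2-associated and lower after T-PNU. Between high- and low-responding samples the 9 were mixed. Stat4, the signal transducer of IL-12, was 10.50 in H1, 10.08 in B2, 10.91 in C2 and 9.96 in D2, against 9.01 in G1 and 9.08 in A2 and was the only separated gene of the 9, with a difference of 1.32. Il18r1, a chain of the IL-18 receptor, and Cxcr3, a chemokine receptor of Th1 cells, lay higher in all 4, by 0.83 and 0.72. Ifng, the cytokine interferon-gamma, was 7.23 in H1, 6.65 in B2, 7.07 in C2 and 7.36 in D2, against 7.25 in G1 and 6.27 in A2, so that G1 lay within the range of the 4 and A2 below it. Il12a, Il12rb2 and Il6 overlapped as well, with differences of 0.32, 0.25 and -0.11. Il10, an anti-inflammatory cytokine, was lower in all 4, with a difference of -0.54. Over the wider list of the Th1 and IL-12/IL-18 axis 1 of 13 genes was separated, which was Stat4 again.

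Most interferon response genes overlapped between the groups. Among 19 interferon-gamma response genes and 18 type I interferon response genes none was separated, with median differences of -0.02 and 0.00. Of all genes 3.17% were separated and higher and 0.3% lower, so these counts are near that share. No gene of either list had all 4 values above both, against 20.7% of all genes, and 1 of the 19 (5.26%) had all 4 below both. The level of the first list was 0.26 in H1, 0.18 in B2, 0.18 in C2 and 0.46 in D2, against 0.52 in G1 and 0.00 in A2, highest in G1 and lowest in A2. Gbp2, an interferon-induced GTPase, was 15.22 in H1, 15.29 in B2, 14.87 in C2 and 15.77 in D2, against 16.03 in G1 and 15.40 in A2. MHC class I presentation genes had none of 15 separated and a median of -0.10. MHC class II genes had 3 of 12 (25%) separated, with or without C2, and a median of 0.39. All 4 values lay above both for 8 of the 12 (66.7%), against 20.7% of all genes, and below both for none. H2-Ob and H2-Oa, the chains of an MHC class II editor typical of B cells, differed by 2.39 and 1.71. H2-Aa, a classical class II chain of all antigen-presenting cells, was 16.49 in H1, 15.99 in B2, 16.03 in C2 and 16.20 in D2, against 15.96 in G1 and 15.59 in A2, with a difference of 0.40.

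Few myeloid genes were separated, but of all genes only 3.17% were separated and higher and 0.3% lower. A count of 0 in a short list is therefore near the share of all genes. None of 18 macrophage genes was separated, and the median was -0.23. Csf1r, the receptor that macrophages need to survive, was 14.37 in H1, 14.41 in B2, 13.93 in C2 and 14.43 in D2, against 14.57 in G1 and 14.79 in A2, highest in A2. Mrc1, a mannose receptor of tissue macrophages, differed by -0.47 and Spp1, which encodes osteopontin, by -0.73, each with all 4 below both. Over the lists, all 4 lay below both for 3 of 18 macrophage genes (16.7%), against 22.9% of all genes. For macrophage activation genes, where Spp1 was listed, this held for 5 of 13 (38.5%). Type 1 dendritic cell genes had 0 of 12 separated, with a median of 0.15. All 4 values lay above both for 5 of the 12 (41.7%), against 20.7% of all genes, and below both for 2 (16.7%). Neutrophil genes had 0 of 16 separated. Their list level was 0.80 in H1, 0.03 in B2, 0.12 in C2 and 0.04 in D2, against 0.08 in G1 and 0.01 in A2, with H1 far above the rest. Il5ra, the IL-5 receptor of eosinophils and some B cells, was the only separated gene of 6 eosinophil genes with values, at 1.13. The level of that list was 1.04 in H1, 0.22 in B2, 0.39 in C2 and 0.52 in D2, against -0.02 in G1 and 0.14 in A2, so that all 4 lay above both.

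Fewer genes were lower, and the differences were smaller. Wnt7b, a secreted Wnt ligand, was 7.59 in H1, 8.40 in B2, 7.37 in C2 and 8.28 in D2, against 8.97 in G1 and 9.36 in A2, a difference of -1.26. Tead1, a transcription factor of the Hippo pathway, was 9.15 in H1, 9.60 in B2, 8.38 in C2 and 9.29 in D2, against 10.32 in G1 and 10.28 in A2. Fn1, the matrix protein fibronectin that macrophages also make, was 14.77 in H1, 15.69 in B2, 14.37 in C2 and 15.28 in D2, against 15.85 in G1 and 16.53 in A2. C2 was lowest for all 3, and for 50 of the 51. Fat1, a giant cadherin, differed by -1.13, Car12, a membrane carbonic anhydrase, by -1.12, and Col12a1 and Col14a1, fibril-associated collagens, by -1.07 and -1.1. Efna5, an ephrin ligand, Kirrel, an adhesion protein, Gstm2, a glutathione transferase, and Cyp1b1, a cytochrome, differed by -1.1, -1.12, -1.09 and -1.09.

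Of 19 tumor and epithelial cell genes 2 were separated and lower, with a median of -0.70. All 4 values lay below both for 10 (52.6%), against 22.9% of all genes. The list level was -0.53 in H1, 0.06 in B2, -0.83 in C2 and -0.14 in D2, against 0.28 in G1 and -0.03 in A2. C2 and H1 were lowest, D2 lay a little below both low-responding samples, and B2 lay between them. Of 20 fibroblast and matrix genes 1 was separated, which was Col12a1, 9 (45%) had all 4 values below both, and the median was -0.58. The list level was -0.59 in H1, -0.41 in B2, -1.12 in C2 and -0.19 in D2, against 0.07 in G1 and -0.21 in A2. C2, lowest in both lists, was highest for T cell receptor genes, whereas H1, next lowest in both, was highest for B cell genes and lowest of the 4 for T cell receptor genes. The part of these levels in the differences was not tested. Without C2, 1 tumor and epithelial gene and no fibroblast or matrix gene was separated and lower.

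Cell cycle genes were lower by less than 2-fold. None of 18 proliferation genes was separated, but 15 had all 4 values below both, and the median difference was -0.54. Top2a, the topoisomerase of dividing cells, was 12.65 in H1, 12.57 in B2, 12.04 in C2 and 12.62 in D2, against 13.17 in G1 and 13.06 in A2, and Ccnb1, the mitotic cyclin B1, differed by -0.75. Pcna, a clamp of DNA replication, was the single gene of the list with all 4 above both, at 0.29. The list level was -0.40 in H1, -0.27 in B2, -0.66 in C2 and -0.17 in D2, against 0.10 in G1 and 0.04 in A2, and all 4 lay below the 6 untreated samples, which ran from -0.03 to 0.40. Trastuzumab sample E2 was at -0.24, below D2, and T-DM1 sample E3 was next to D2 at -0.16. Glycolysis and hypoxia genes had 11 of 15 with all 4 below both and a median of -0.38, led by Adm, the peptide adrenomedullin, at -0.89. Against 22.9% of all genes with all 4 below both, these are 2 of the 5 lists whose level lay lower in all 4. The others were the chemokine, sterol synthesis and housekeeping lists. Without C2 the same counts were 15 of 18 and 11 of 15.

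One gene of lymph node vessels stood out. Glycam1, a mucin made by high endothelial venules and mammary epithelium, was 9.43 in H1, 6.54 in B2, 8.90 in C2 and 8.03 in D2, against 4.68 in G1 and 5.42 in A2. The difference of 3.17 was larger than that of any gene of the B cell list. The highest untreated value was 6.21 in B1, below all 4, while trastuzumab samples E2 and B3 had 8.38 and 8.25. Of the 8 genes with values in that list Glycam1 alone was separated, and the median difference was -0.55, with overlapping levels. All 4 values lay above both for 2 of the 8 (25%) and below both for 2 (25%), against 20.7% and 22.9% of all genes.

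The 4 high-responding samples were not alike. C2 had the highest value for 456 of the 538 higher genes, H1 for 72, D2 for 7 and B2 for 3. D2 had the lowest value of the 4 for 326. Between C2 and D2 900 genes were at least 2-fold apart, against 87 between B2 and D2. Among the same class of genes, those with a symbol of their own and a mean above that of the median gene, H1 exceeded the other 5 samples by the most for S100a8, Chil1 and Lcn2, which neutrophils express. S100a8, a calcium-binding protein of neutrophils and monocytes, was 13.05 in H1, 12.03 in B2, 12.05 in C2 and 11.64 in D2, against 11.82 in G1 and 11.99 in A2. In B2 the leading genes of this class were Krt19, a keratin, Hbb-b1, a chain of haemoglobin, and Arc, an immediate early gene. In D2 they were Gzmb, Nkg7 and H2-Q7, a nonclassical class I gene, and in C2 Jchain, Dnah8 and S1pr1. Dnah8, a dynein heavy chain of cilia and sperm, was 11.14 in H1, 11.36 in B2, 12.38 in C2 and 10.09 in D2, against 8.36 in G1 and 9.52 in A2.

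The low-responding samples differed too, by at least 2-fold for 94 genes, 57 of them higher in A2. In the same class of genes, B cell genes led these. Ms4a1 was 6.61 in G1 and 8.67 in A2, and Hbb-b1 was 7.89 and 9.86. Genes higher in G1 were led by Rn7sk, a small nuclear RNA, Mir6236, annotated as a microRNA, and Lars2, a mitochondrial leucyl-tRNA synthetase. Rn7sk was 10.57 in H1, 10.56 in B2, 9.44 in C2 and 8.84 in D2, against 10.42 in G1 and 8.22 in A2, and Lars2 was 15.86 in H1, 15.55 in B2, 14.26 in C2 and 13.94 in D2, against 15.85 in G1 and 13.82 in A2. H1, B2 and G1 were high and C2, D2 and A2 low for both genes, a division that crosses that of response. For 498 of the 538 higher genes A2 was the higher of the 2, and for 40 it was G1. In 48 genes G1 lay at least 2-fold below all other T-PNU samples, and in 1 gene A2 did.

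The samples were also placed by the root mean square of their log2 differences over all genes. Between 2 high-responding samples this distance averaged 0.363, from 0.243 to 0.483. It was 0.234 between G1 and A2, and it averaged 0.49 across the groups, from 0.311 to 0.752. The ranges overlapped. C2 lay farther from D2, at 0.483, than A2 did from D2 (0.311), B2 (0.362) or H1 (0.465). G1 also lay nearer than that to D2 (0.379) and B2 (0.448). The nearest sample was often in another cohort. Trastuzumab sample B3 was nearest to H1, B2 and D2, at 0.309, 0.243 and 0.235, and untreated sample D1 was nearest to A2 at 0.229. For C2 the nearest was H1 at 0.393, and for G1 it was A2.

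**Figure D5:**
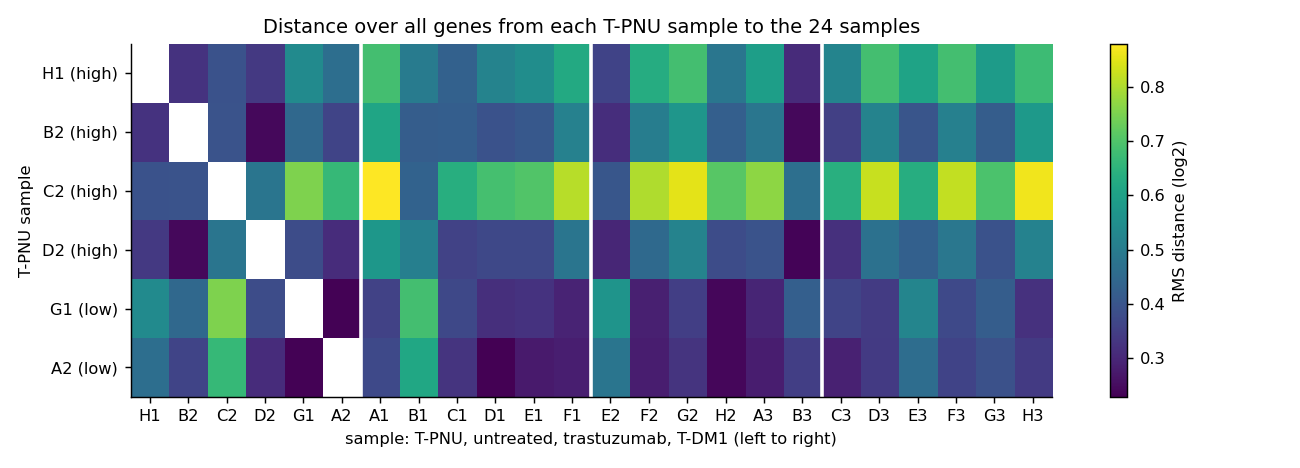
Root mean square log2 distance over 16996 genes from each of the 6 T-PNU samples (rows) to the 24 samples (columns, by cohort, with white lines between cohorts). Dark cells are near and white cells mark a sample against itself. C2 is far from most samples, up to 0.879 from untreated sample A1, and B3 is dark in the rows of B2 and D2.

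Whether T-PNU tumors varied more than other cohorts was tested without use of the response, as the distance of each sample to the median profile of its cohort. The distance was 0.276 ± 0.113 (SD, n = 6) in T-PNU samples, 0.285 ± 0.164 (SD, n = 6) in untreated, 0.267 ± 0.116 (SD, n = 6) in trastuzumab and 0.214 ± 0.0611 (SD, n = 6) in T-DM1 samples. The difference from untreated was -0.0095 (two-sided exact permutation test p = 0.898), from trastuzumab 0.00888 (exact p = 0.92) and from T-DM1 0.062 (exact p = 0.277). Adjusted over the 3 comparisons the exact p-values were 0.92, 0.92 and 0.831. A greater spread of the T-PNU cohort was thus not detected with 6 samples a group.

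The values that marked the high-responding samples also occurred outside T-PNU. Of the 538 higher genes, trastuzumab sample E2 reached the lowest of the 4 values in 535 (99.4%), untreated sample B1 in 534 (99.3%), trastuzumab sample B3 in 472 (87.7%) and T-DM1 sample E3 in 409 (76%). No gene reached it in untreated sample A1 or T-DM1 sample H3, and the remaining 12 samples had 1 to 166. For the B cell list, B1, E2, B3 and G3 had levels at or above the lowest of the 4, and for the T cell receptor list B1, E2 and E3 did. Ms4a1, for example, was 11.08 in B1, 11.16 in E2 and 10.95 in B3. Cd3e was 10.13 in B1 and 10.32 in E2. Gzmb was 10.57 in B1 and 11.33 in E2, both below the lowest of the 4. Of the 51 lower genes, untreated sample C1 lay at or below the highest of the 4 in 49 (96.1%) and E2 in 45 (88.2%).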

How the data were processed

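Bead-enriched CD45+ cells of 24 EMT6-hHER2 tumors, 6 of them treated with T-PNU, had been profiled by RNA-seq, and the table the authors made was analysed. Per the labels, stranded mRNA libraries were aligned with STAR 2.4.2a to mm10 and counted with featureCounts (Subread 1.5.0), and DESeq2 was used. The study removed genes with an average under 5 counts. The deposited values are on a log2 scale and normalized for library size. The transformation is not given in the sources used here, they look shrunken gene by gene, and shrunken values understate the differences of low genes. Depth is unknown, so no interval for counting error is given. Of the gene IDs, 16941 (99.7%) were found in GENCODE M21 (GRCm38). Symbols are those of the table.

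The cohorts come from the labels and the response of each T-PNU tumor from the study. A gene was called separated when all 4 high-responding values lay on one side of both low-responding values and the means differed by at least 1. Named genes were, among non-overlapping genes that had a symbol and whose mean exceeded the median of all genes, the 12 largest and 12 smallest differences (without predicted, immunoglobulin and T cell receptor segment genes), the extremes of each of 38 lists, 9 genes of the study's text, the 3 genes leading in each T-PNU sample and the 5 leading each way between G1 and A2. List members are named as examples. A few named genes are not reported here. Of 512 list genes 486 had values. The members and lists were chosen with earlier results of these data known. Alternatives were quantile normalization, centring on sample medians, a filter on the mean, other limits, the 1000 most variable genes, the mean as cohort centre and each T-PNU sample left out. The steps were tested on simulated data. Python 3.11.15, scipy 1.17.1 and matplotlib 3.10.9 were used. T cell receptor clonotypes and flow cytometry were not analysed here.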

Additional observations from a re-analysis of the deposited data

Results flagged for a closer look

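Among 157 list levels and named genes, 6 had 1 T-PNU sample far from the other 5 by Dixon's ratio of the gap to the range, a rule that flags about 1 in 20 groups by chance. The neutrophil list level of H1 was 0.80, where the other samples lay between 0.01 and 0.12. H1 also stood above the rest for 3 genes that neutrophils express, namely S100a8 at 13.05 (the others 11.64 to 12.05), Chil1 at 10.00 (8.84 to 9.18) and Lcn2 at 9.87 (8.95 to 9.09). Genes of this kind were named because they lead in 1 sample, so that their distance from the other samples follows partly from the naming rule. Syk, a kinase of B cell and Fc receptors, was 13.96 in H1 and 13.52 to 13.68 in the others. Lyve1, a hyaluronan receptor of lymphatic vessels and some macrophages, was 6.94 in A2 and 5.43 to 5.79 in the others.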

How the results depend on the processing

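No paired analysis was run, because each sample is a separate mouse and the labels pair none of them. The 538 higher and 51 lower genes became 498 and 54 with quantile normalization, of which 498 and 43 were shared with the first choice, and 547 and 39 with centring on sample medians, of which 537 and 39 were shared. Among genes with a mean above the median 171 were higher and 37 lower. A limit of 1.5-fold gave 1302 and 833, and a gap of at least 1 between the nearest values gave 128 and 0. Leaving out 1 T-PNU sample at a time gave 385 to 678 higher genes and 1 to 223 lower genes. The lower count was 31 without H1, 216 without B2, 1 without C2, 223 without D2 and 174 without A2, and the cause was not tested.

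Of 38 lists, 4 whose levels did not overlap changed sign in their median difference under 1 alternative each. These were the plasma cell list with the filter on the mean (-0.0568), the Th1 and IL-12/IL-18 list and the genes of the study's text without A2 (-0.0331 and -0.0549), and the mature dendritic cell list without H1 (-0.0129). With samples left out in turn the last 3 lists reached up to 0.31, 0.549 and 0.177 in that order. A further 7 lists, whose levels overlapped, crossed 0 when 1 sample or another was left out, namely the interferon-gamma response, type I interferon response, natural killer cell, neutrophil, monocyte, mast cell and basophil, and vascular endothelium lists. Of 952 values of named genes under the alternatives 914 moved by less than 1 SD and none that was separated changed sign. The 38 that moved more were those without G1 or without A2. Over the 1000 most variable genes the distance was 0.788 within the 4, 1.35 across the groups and 0.594 between the 2. The difference in spread between T-PNU and untreated samples ran from -0.0419 to 0.0182 with 1 T-PNU sample left out, and that between T-PNU and trastuzumab from -0.0235 to 0.0365. The adjusted exact permutation p stayed above 0.05 under every alternative run for the spread. With 2 low-responding samples, each of which can set a call, the limits lie in the number of samples, and depth could not be judged.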

Other observations

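Red blood cell transcripts differed between samples in both groups. Over the 3 genes with values the level was -0.55 in H1, 1.03 in B2, 0.09 in C2 and 0.31 in D2, against -1.51 in G1 and -0.32 in A2, so that B2 was highest, H1 fell below A2 and the groups overlapped. Hba-a2, an alpha chain of haemoglobin, was 6.79 in H1, 8.53 in B2, 7.37 in C2 and 7.76 in D2, against 5.62 in G1 and 6.92 in A2. Alas2, the first enzyme of haem synthesis in red cells, was 5.49 in H1, 6.60 in B2, 5.98 in C2 and 5.95 in D2, against 4.72 in G1 and 5.62 in A2. G1 was lowest for both.

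The other lists gave few separated genes, as did all genes, of which 3.17% were separated and higher and 0.3% lower. Without C2 those named next from the pan-leukocyte, sterol synthesis and monocyte lists were not separated. Of 8 pan-leukocyte genes 1 was separated, Cytip, an adhesion regulator of lymphocytes, with a difference of 1.16, and the list median was 0.45. All 4 values lay above both for 6 of the 8 (75%), against 20.7% of all genes, and below both for none. Without C2 the same 6 of 8 was found. The list level was 0.39 in H1, 0.33 in B2, 0.66 in C2 and 0.31 in D2, against -0.12 in G1 and 0.10 in A2, so that all 4 lay above both. Of 20 sterol synthesis genes 1 was separated and higher in the 4, Mvk, the mevalonate kinase, at 1.05. Another 10 (50%) had all 4 values below both, against 22.9% of all genes, among them Sqle, the squalene epoxidase, at -0.67. Of 15 mature dendritic cell genes with values Ccr7 alone was separated, and naive lymphocytes express it too. Among the 12 monocyte genes Fn1 was separated and lower. No gene was separated among 31 chemokines with values, of which 9 (29%) had all 4 values below both, as 22.9% of all genes did (list median -0.25), led by Cxcl5, which draws in neutrophils, at -0.82.

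The same was true of 16 p53 targets (median -0.21), where Eda2r, a receptor of the TNF family, was 9.29 in H1, 9.44 in B2, 8.28 in C2 and 9.74 in D2, against 10.36 in G1 and 9.90 in A2. It was true of 15 immediate early and stress genes (median 0.09) and of 13 vascular endothelial genes (median 0.11), and of 7 Fc gamma receptor genes (median -0.14). Nor was any gene separated among 13 macrophage activation genes (median -0.11), 8 plasmacytoid dendritic cell genes (median 0.34), 13 mast cell and basophil genes (median -0.01) and 10 genes of adipose tissue, muscle and mammary gland (median 0.19). Of 12 housekeeping genes none was separated, and the median was -0.07. Their list level still lay lower in all 4, at -0.171 to -0.014, against -0.003 in G1 and 0.011 in A2.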
